A study of Mus musculus with 2 samples.

Results

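Hox genes encode homeodomain transcription factors that give cells a position along the head-to-tail axis of the embryo. Their transcripts were followed here across the cell types of the mouse thoracic aorta. Every gene of the feature list whose symbol is Hox followed by the cluster letter a, b, c or d and a paralogue number was taken as a member, which gave 39 genes among 32287 features. No expression value was used to choose them. Of the 39 genes, 26 had at least 20 UMIs (unique molecular identifiers, the count of captured RNA molecules) in the cells analysed and were described by level. The libraries came from the thoracic aortas of 2 wild-type GFPiSMC mice on the C57BL/6J background (n = 2 aortas, 1 library each). These animals carry the Myh11-CreERT2 transgene, which expresses an inducible Cre recombinase from a smooth muscle promoter, and the mT/mG reporter, which turns from tdTomato to GFP after recombination. Both were given tamoxifen (1 mg/d over 5 days) when 3 weeks old and were studied at 12 weeks, so Cre, reporter and tamoxifen were shared by all cells compared. Cells were isolated in the cold and sorted as viable single cells without selection for GFP, and no injured or mutant aorta was among these libraries.

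The mammalian Hox genes lie in 4 chromosome clusters that arose by duplication, and genes at the same place in different clusters share a paralogue number. Low numbers are switched on early and far forward in the embryo, high numbers later and farther back, an order that follows the position of each gene in its cluster. Cells of the adult body often keep a Hox pattern that reflects where they arose. In the thoracic aorta, smooth muscle cells (SMCs) are known to come from several embryonic sources, among them the neural crest, the second heart field and the somites. Hox proteins bind DNA together with the TALE homeodomain proteins Pbx and Meis. For description, paralogues 1 to 3 are called anterior, 4 to 8 central and 9 to 13 posterior.

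The analysis held 6539 cells of aorta 1 and 4614 cells of aorta 2, with median depths of 5671 and 5396.5 UMIs per cell. Marker genes gave 3790 SMCs, 2741 fibroblasts, 1392 endothelial cells, 409 mesothelial cells (the lining of the outer surface), 123 lymphatic endothelial cells, 1548 myeloid cells, 915 lymphocytes and 36 erythroid cells. Another 199 cells stayed unnamed. All 8 SMC, all 8 fibroblast, all 8 mesothelial and 7 of 8 endothelial markers were found in at least 25% of the cells of their own type. Some markers of other classes were also present. Mesothelial cells held 1169 and 874 CPM (UMIs per 1000000 UMIs of the cell type) summed over 6 cardiomyocyte markers, 1 of which was detected in 25% of the cells, and endothelial cells held 1506 and 1749 CPM summed over 6 erythroid markers, 0 of which were. Fibroblast markers reached 5374 and 8191 CPM in mesothelial cells, with 3 of 8 detected. SMC markers reached 2325 and 1965 CPM in fibroblasts, with 4 of 8 detected. In endothelial cells they reached 1340.5 and 1189.6 CPM, with 2 of 8 detected. The part of such transcripts in the Hox values was not tested. The barcode sets of the libraries shared 18 barcodes.

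The 26 described genes were divided unevenly among the chromosome clusters. HoxA on chromosome 6 (mm10, 52155590 to 52260880, minus strand) contributed 9 of its 11 genes and 7368 UMIs. HoxB on chromosome 11 (96194316 to 96368256, plus strand) contributed 8 of its 10 genes and 8036 UMIs. HoxC on chromosome 15 (102921103 to 103036852, plus strand) contributed 5 of its 9 genes and 1205 UMIs, and HoxD on chromosome 2 (74668310 to 74765142, plus strand) contributed 4 of its 9 genes and 530 UMIs. The remaining 13 genes were nearly silent. Hoxa11, Hoxa13, Hoxb1, Hoxc11, Hoxc12, Hoxc13, Hoxd1, Hoxd11, Hoxd12 and Hoxd13 had 0 UMIs in all analysed cells, Hoxb13 had 1 UMI, Hoxc10 had 2 and Hoxd10 had 8. Gene bodies of 10 described genes overlapped another feature on the same strand, because Hoxa3 spans Hoxa4, Hoxa5 and Hoxa6, Hoxc5 spans Hoxc6, Hoxc8 and Hoxc9 and partly overlaps Hoxc10, and Hoxd3 overlaps Hoxd4. How UMIs were assigned between such neighbours is therefore uncertain. Antisense RNAs such as Hoxb3os at Hoxb2 and Hoxb3 and Hoxd3os1 at Hoxd4 and Hoxd8 cannot be told apart from the Hox gene unless strand was used in counting, which the sources used here do not state.

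**Figure D1:**
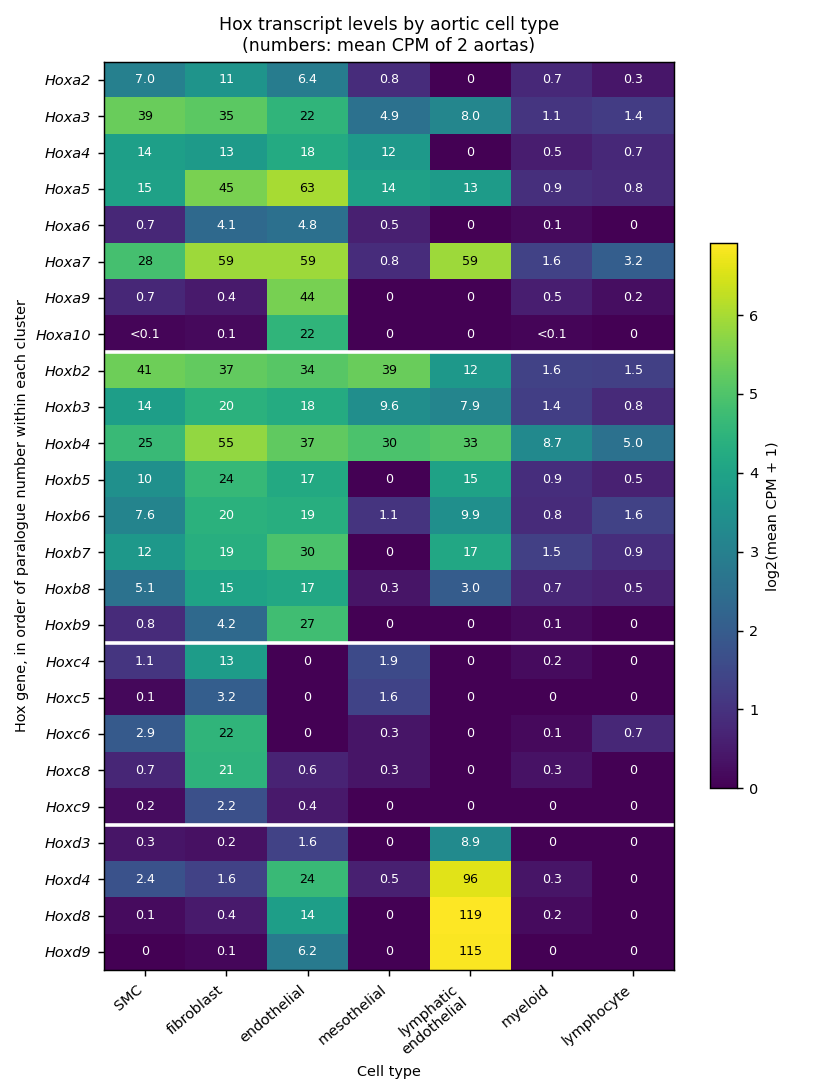
Heat map of the described Hox genes reported here (rows, by cluster and paralogue number) in 7 cell types (columns). Numbers are mean CPM of 2 aortas and colour is log2(mean CPM + 1). The HoxC rows are filled mainly in fibroblasts, and Hoxa9, Hoxa10 and Hoxb9 mainly in endothelial cells. The HoxD rows are highest in lymphatic endothelial cells, followed by endothelial cells. Mesothelial cells have no gene above 2 CPM beyond Hoxa5 and Hoxb4.

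Upstream sequences are shown for 4 genes. Hoxb4 was transcribed in all 4 main types. Among these types, Hoxc4 was found mainly in fibroblasts, and Hoxd4 and Hoxd8 mainly in endothelium. Each is the 250 bases before the RefSeq transcript start (GRCm38.p6), written 5′ to 3′ on the strand of the gene. Capitals mark matches, on either strand, to any of the motifs TGATNNAT (the Hox and Pbx composite site), TTTATG (a core of Cdx sites), CCAAT (bound by general factors) and TATAAA (the TATA box), and matches to different motifs may overlap. Hoxb4 lies at chr11:96318017-96318266, Hoxc4 at chr15:103034145-103034394, Hoxd4 at chr2:74721728-74721977 and Hoxd8 at chr2:74704365-74704614, all on the plus strand.
Hoxb4: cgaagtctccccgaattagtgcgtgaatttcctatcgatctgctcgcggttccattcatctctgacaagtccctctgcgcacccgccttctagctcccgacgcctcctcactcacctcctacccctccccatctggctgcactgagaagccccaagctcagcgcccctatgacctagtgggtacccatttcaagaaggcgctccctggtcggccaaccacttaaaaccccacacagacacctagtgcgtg
Hoxc4: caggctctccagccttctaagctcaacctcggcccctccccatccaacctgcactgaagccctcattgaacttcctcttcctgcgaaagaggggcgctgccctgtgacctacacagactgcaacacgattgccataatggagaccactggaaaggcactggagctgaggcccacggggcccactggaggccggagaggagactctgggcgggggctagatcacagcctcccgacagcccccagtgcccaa
Hoxd4: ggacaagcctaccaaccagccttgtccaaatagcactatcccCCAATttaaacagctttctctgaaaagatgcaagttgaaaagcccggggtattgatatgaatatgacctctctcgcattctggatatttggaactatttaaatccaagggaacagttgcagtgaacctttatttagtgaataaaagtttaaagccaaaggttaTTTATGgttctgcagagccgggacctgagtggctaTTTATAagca
Hoxd8: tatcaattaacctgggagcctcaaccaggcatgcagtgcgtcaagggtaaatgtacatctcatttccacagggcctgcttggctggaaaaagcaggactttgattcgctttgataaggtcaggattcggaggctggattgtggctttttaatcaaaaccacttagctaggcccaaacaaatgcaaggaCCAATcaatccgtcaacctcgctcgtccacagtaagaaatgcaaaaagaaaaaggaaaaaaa
The window before Hoxd4 held the CCAAT motif, the Cdx core and the TATA box, that before Hoxd8 held the CCAAT motif, and those before Hoxb4 and Hoxc4 held none of the 4 motifs. Over 32851 promoters of this length, CCAAT occurred in 33.8%, TATAAA in 12.4%, TTTATG in 10.8% and TGATNNAT in 7.68%. The windows before Hoxd4 (40.4% G and C) and Hoxd8 (44.4%) were less rich in these bases than those before Hoxb4 (58.0%) and Hoxc4 (62.0%). The median was 52.4% over all promoters. Other HoxD windows, not shown, ranged from 44.8% (Hoxd11) to 74.4% (Hoxd13), with Hoxd9 at 65.2%. Reference windows were found for 22 of the 39 genes, in 24 windows. These matches are a description of the letters in the windows only.

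Summed over all 39 genes, Hox transcripts made up 228 ± 24.5 CPM (SD, n = 2 aortas) in SMCs. The sums were 425 ± 8.36 CPM for fibroblasts, 487 ± 21.4 CPM for the endothelium and 126 ± 2.65 CPM for mesothelial cells. Anterior genes gave sums of the same order in SMCs (102 ± 5.04 CPM), in fibroblasts (104 ± 12.7 CPM) and endothelial cells (84.3 ± 1.37 CPM). Central genes gave 124 ± 19.8 CPM in SMCs, but 314 ± 3.72 CPM in fibroblasts and, in endothelium, 303 ± 17.6 CPM. The types separated most by their posterior genes. Those genes summed to 103 and 95.8 CPM in the endothelial cells of aortas 1 and 2, to 7.53 and 6.64 CPM in fibroblasts, to 1.98 and 1.62 CPM in SMCs, and to 0 UMIs of 2534899 in mesothelial cells, which allows a level of up to 1.18 CPM (3 UMIs over both aortas). Posterior transcripts were thus 20.5% and 20.3% of all Hox UMIs in endothelium, and 0.936% and 0.658% in SMCs. The posterior sums did not overlap between any of these 4 types.

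**Figure D2:**
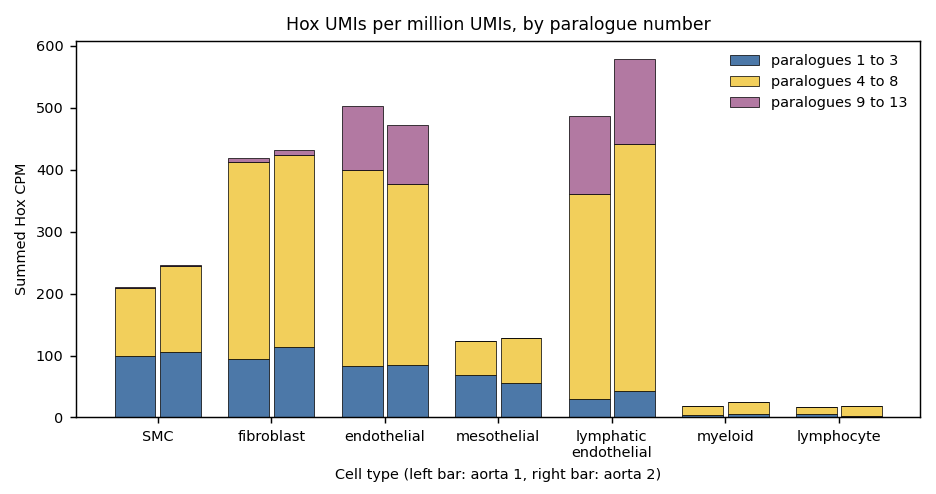
Stacked bars of summed Hox CPM (y axis) in 7 cell types, with aorta 1 on the left and aorta 2 on the right of each pair and colours for paralogues 1 to 3, 4 to 8 and 9 to 13. Posterior genes form a thick layer in endothelial (103 and 95.8 CPM) and lymphatic endothelial cells (126 and 138 CPM), a thin one in fibroblasts (7.53 and 6.64 CPM) and none in mesothelial cells.

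Differences between types were tested for the 24 Hox genes that passed the filter on low sums (Hoxc5 and Hoxc9 did not), in 1 edgeR quasi-likelihood fit over 13699 genes. A gene was called at a Benjamini-Hochberg adjusted p under 0.05 and a log2 fold change over 1 in either direction. Because the filter keeps genes that are high in some type, the counts below are read against the share of all tested genes called. All fits used the same aortas, and each type entered 3 comparisons, so the 6 comparisons are not independent of one another. The aortas are separate samples, but only 2. The p-values rest on a spread estimated over the sums of all 8 named types and shared across genes. Sums of the same aorta were treated as independent.

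Fibroblasts carried more central Hox transcripts than SMCs, and HoxC transcripts above all. Hoxc6 and Hoxc8 help to pattern the thoracic part of the axis, and Hoxc4 lies at the anterior end of their cluster. Hoxc8 reached 20.2 and 22.1 CPM in fibroblasts and 0.839 and 0.511 CPM in SMCs. Hoxc6 reached 22.3 and 21.2 CPM in fibroblasts and 2.34 and 3.49 CPM in SMCs, and Hoxc4 reached 12.9 and 13.4 CPM against 1.02 and 1.19 CPM. In each case both fibroblast values lay far above both SMC values. The log2 fold change, SMC minus fibroblast, was -4.71 ± 0.32 for Hoxc8 (SE, edgeR adjusted p = 5.33e-12), -2.78 ± 0.26 for Hoxc6 (adjusted p = 1.60e-09) and -3.41 ± 0.32 for Hoxc4 (adjusted p = 4.31e-09). The neighbours Hoxc5 and Hoxc9, too low for the test, had 27 and 25 UMIs and 26 and 13 UMIs in the fibroblasts of aortas 1 and 2 against 2 and 1 UMIs and 4 and 1 UMIs in SMCs.

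In all, 9 of the 24 genes were higher in fibroblasts, where 15.4% of all tested genes were called, and 0 were higher in SMCs, where 10.8% were called. Besides the HoxC genes they were Hoxa5, Hoxa6, Hoxb5, Hoxb6, Hoxb8 and Hoxb9. Hoxa5, which patterns lung and other thoracic mesenchyme, stood at 46.1 and 43.4 CPM in fibroblasts and 13 and 16.3 CPM in SMCs (log2 fold change -1.48 ± 0.16). Hoxb8 stood at 15.1 and 14.7 CPM against 4.31 and 5.96 CPM (-1.41 ± 0.22). Another 6 genes had an unadjusted p under 0.05 without being called, of which Hoxa3 and Hoxb2 had the higher mean in SMCs. Hoxa7 was also among them, with 60.6 and 56.6 CPM in fibroblasts and 25.4 and 31.2 CPM in SMCs. The median log2 fold change was -0.96 over the 24 genes and -0.01 over all genes tested. DESeq2 called 11 Hox genes higher in fibroblasts and 0 higher in SMCs. Hoxb5, Hoxb6 and Hoxb8 fell below the fold threshold (log2 fold changes of -0.96, -0.97 and -0.96) when SMC cluster 3, described below, was left unnamed.

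Endothelial cells differed from SMCs and fibroblasts by posterior and HoxD genes. Hoxa9, known in blood formation and in endothelium, reached 44.0 and 43.5 CPM in the endothelium. It stood at 1.1 and 0.340 CPM in SMCs, was at 0.391 and 0.442 CPM in fibroblasts, and had 0 UMIs in mesothelial cells. Hoxb9, its paralogue on chromosome 11, reached 26.8 and 26.8 CPM in endothelium, 4.20 and 4.13 CPM in fibroblasts and 0.599 and 1.02 CPM in SMCs. Hoxa10 reached 23.8 and 19.8 CPM in endothelium, but rested on 1 UMI in each aorta in SMCs and again in fibroblasts. For all these genes the endothelial values stood alone, with no overlap. Against SMCs the log2 fold change, SMC minus endothelial, was -5.59 ± 0.33 for Hoxa9 (edgeR adjusted p = 3.24e-13) and -4.85 ± 0.34 for Hoxb9 (adjusted p = 2.25e-11). For Hoxa10 the pooled ratio of endothelial cells to SMCs was 314 (exact 95% counting interval 85.0 to 2623).

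The HoxD genes followed the same division. Hoxd4 stood at 27.5 and 21.5 CPM in endothelium, 2.34 and 2.38 CPM in SMCs and 1.56 and 1.62 CPM in fibroblasts. Hoxd8 stood at 15.9 and 11.4 CPM in endothelium, with 2 UMIs per aorta in SMCs and 4 and 3 UMIs in fibroblasts. Hoxd9, better known from limb patterning, stood at 7.61 and 4.84 CPM in endothelium and had 0 UMIs in SMCs, which puts endothelial cells at least 59.0-fold higher (against 3 UMIs over both aortas). The HoxC genes gave the opposite picture. Endothelial cells held 0 UMIs of Hoxc4, Hoxc5 and Hoxc6 in both aortas, 1 and 2 UMIs of Hoxc8, and 1 and 1 UMIs of Hoxc9. Fibroblasts were at least 38.4-fold higher for Hoxc6 and at least 23.2-fold higher for Hoxc4, and the pooled Hoxc8 ratio was 37.1 (12.6 to 181).

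**Figure D3:**
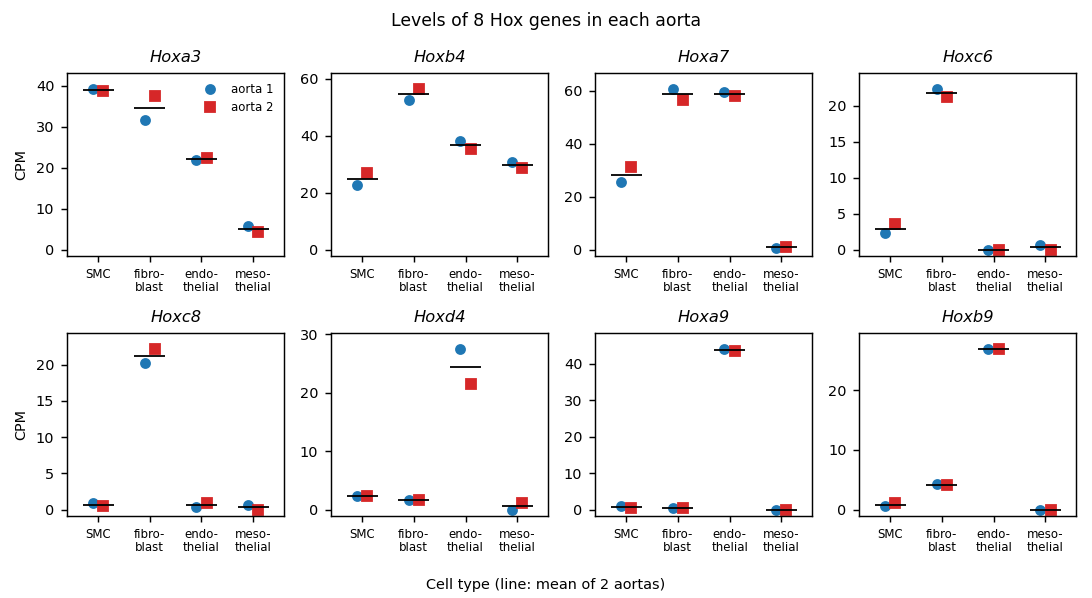
CPM (y axis, linear, from 0) of 8 Hox genes in the 4 main cell types, with a blue circle for aorta 1, a red square for aorta 2 and a line for their mean. Hoxc6 and Hoxc8 are high in fibroblasts (20.2 to 22.3 CPM), Hoxd4, Hoxa9 and Hoxb9 in endothelium (21.5 to 44.0 CPM), and Hoxa3 is lowest in mesothelial cells (5.64 and 4.26 CPM).

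Against SMCs, 11 of 24 Hox genes were higher in endothelial cells (15.6% of all tested genes) and 3 were higher in SMCs (14.5%). The 11 were Hoxa5, Hoxa6, Hoxa9, Hoxa10, Hoxb6, Hoxb7, Hoxb8, Hoxb9, Hoxd4, Hoxd8 and Hoxd9. All 4 posterior genes tested were among them, but this was partly set by the filter. Genes such as Hoxa10 and Hoxd9, with 2 and 0 UMIs in SMCs, passed it through endothelial types, and Hoxc9 did not pass. Hoxb7 stood at 28.8 and 31.7 CPM in endothelium and 10.4 and 13.3 CPM in SMCs (log2 fold change, SMC minus endothelial, -1.16 ± 0.20). The 3 were Hoxc4, Hoxc6 and Hoxa3, a gene of the pharyngeal arches that stood at 39.2 and 38.7 CPM in SMCs and 21.8 and 22.4 CPM in endothelium (1.02 ± 0.18). The median was -1.0 over the 24 genes and 0 over all genes tested. The call of Hoxa3 rested on the fold threshold. Its log2 fold change fell under 1 without aorta 1 (0.93, edgeR adjusted p = 0.00838), in a fit of these types alone (0.99), by DESeq2 (0.82), with doublets kept (0.88) and with SMC cluster 3, described below, left unnamed (0.68). Leaving that cluster unnamed also ended the calls of Hoxb7 (-0.67) and Hoxb6 (-0.80). Hoxb6 was further lost without aorta 1 (adjusted p = 0.0510) and in cells of 5000 to 25000 UMIs (0.253), and Hoxc4 was lost without aorta 1 (0.102), without aorta 2 (0.0688) and in cells of 5000 to 25000 UMIs (0.0936). In the fit of these types alone 1 gene was higher in SMCs.

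Between fibroblasts and endothelial cells, 7 of 24 genes were higher in endothelium (11.7% of all tested genes) and 3 in fibroblasts (14.1%). The 3 were Hoxc4, Hoxc6 and Hoxc8, and the 7 were Hoxa9, Hoxa10, Hoxb9, Hoxd3, Hoxd4, Hoxd8 and Hoxd9. The median log2 fold change, fibroblast minus endothelial, was -0.13 over the 24 genes and -0.00089 over all genes. Hoxa7, not called, stood at 60.6 and 56.6 CPM in fibroblasts and 59.5 and 58.0 CPM in endothelium, and Hoxb2 at 34.7 and 38.9 CPM against 34.7 and 33.0 CPM, with overlapping ranges in both cases. Hoxd3 rested on few UMIs, with 3 and 5 UMIs in endothelium and 2 and 2 UMIs in fibroblasts. It was lost with the aorta as a block (edgeR adjusted p = 0.0578), without aorta 1 (0.181) and without aorta 2 (0.367).

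Mesothelial cells held fewer Hox genes at 1 CPM or more than the other main types, and 0 posterior UMIs. Their anterior genes summed to 68.9 and 55.4 CPM and their central genes to 55.1 and 72.4 CPM, with overlapping ranges. Hoxa3, Hoxa4, Hoxa5, Hoxb2, Hoxb3 and Hoxb4 were at 1 CPM or more in both aortas, as were 16 genes in SMCs, 21 in fibroblasts and 20 in endothelial cells. Hoxb4 stood at 30.7 and 28.8 CPM and Hoxb2 at 47.0 and 30.9 CPM, within or near the levels of the other types. Beyond Hoxb4 the HoxB cluster was nearly silent, with 0 UMIs of Hoxb5, Hoxb7 and Hoxb9 in both aortas, 0 and 2 UMIs of Hoxb6, and 1 and 0 UMIs of Hoxb8. In HoxA, Hoxa5 stood at 7.52 and 21.3 CPM and Hoxa7 at 1 UMI per aorta. Hoxd3, Hoxd8 and Hoxd9 had 0 UMIs, and Hoxd4 had 1. With 198 and 120 Hox UMIs in these cells, single low genes were measured coarsely.

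Against mesothelial cells, 9 of 24 genes were higher in SMCs (13.5% of all tested genes) while 15.6% of all tested genes were higher in mesothelial cells. The 9 were Hoxa2, Hoxa3, Hoxa7, Hoxb5, Hoxb6, Hoxb7, Hoxb8, Hoxc6 and Hoxd4. Hoxa3 stood at 39.2 and 38.7 CPM in SMCs and 5.64 and 4.26 CPM in mesothelial cells (log2 fold change 3.14 ± 0.31, edgeR adjusted p = 2.59e-09). Hoxb7 was at least 9.99-fold and Hoxb5 at least 8.46-fold higher in SMCs. The calls of Hoxb6, Hoxc6 and Hoxd4 were lost without aorta 1 (adjusted p = 0.0504 to 0.504) and that of Hoxc6 without aorta 2 (0.206). Hoxd4 was also lost with the aorta as a block (0.0505) and with SMC cluster 3 left unnamed (log2 fold change 0.97, edgeR adjusted p = 0.598). DESeq2 did not call Hoxc6 or Hoxd4. The median of the 24 genes was 2.64, or 0.91 with genes at 0 UMIs set at their bound, and 0.035 over all genes.

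Fibroblasts differed from mesothelial cells in 14 of 24 genes that were higher (12.8% of all tested genes) while 11% of all tested genes were higher in mesothelial cells. The 14 comprised Hoxa2, Hoxa3, Hoxa5, Hoxa6, Hoxa7, Hoxb3, the Hoxb5 to Hoxb9 series, Hoxc4, Hoxc6 and Hoxc8. The pooled ratio was 74.8 for Hoxa7 (exact 95% counting interval 20.7 to 618) and 55.4 for Hoxc6 (9.89 to 2195), and Hoxb5 was at least 20.2-fold higher. Hoxa6, Hoxb3 and Hoxb9 were lost without aorta 1 (edgeR adjusted p = 0.0502 to 0.365). The median was 3.23, or 2.25 with genes at 0 UMIs at their bound, and 0.0043 over all genes.

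Endothelial and mesothelial cells gave the most calls, with 16 of 24 genes higher in endothelium (12.5% of all tested genes) and Hoxc4 among those higher in mesothelial cells (13.3%). The 16 included Hoxa9 (at least 37.0-fold), Hoxb7 (at least 25.5-fold), Hoxb9 (at least 22.6-fold), Hoxa10 (at least 18.4-fold) and Hoxd8 (at least 11.5-fold). The pooled ratio for Hoxd4 was 63.2 (exact 95% counting interval 11.1 to 2513). Hoxc4 rested on 1 and 3 mesothelial UMIs against 0 and was lost without either aorta (edgeR adjusted p = 0.0668 and 0.347). Hoxb3 was at the threshold (log2 fold change 1.00 ± 0.39) and was lost with the aorta as a block (0.99), without aorta 1 (adjusted p = 0.294) and without aorta 2 (0.113). Hoxa2, Hoxa6 and Hoxd9 were lost without aorta 1 (adjusted p = 0.174, 0.206 and 0.105). The median was 4.03, or 2.71 with genes at 0 UMIs at their bound, and 0 over all genes.

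Hoxa4, Hoxb2 and Hoxb4 were called in 0 of the 6 comparisons by edgeR. Hoxb4, a regulator of blood stem cells, was lowest in SMCs (22.6 and 26.9 CPM), followed by mesothelial cells (30.7 and 28.8 CPM), endothelial cells (38.0 and 35.2 CPM) and fibroblasts (52.7 and 56.3 CPM). Its ranges did not overlap between any of these types. With 2 values per type this was common, holding for 17 to 21 of the 24 Hox genes in each comparison. The share over all genes was not counted. The fit did not separate mesothelial cells from SMCs (log2 fold change, SMC minus mesothelial, -0.06, edgeR adjusted p = 0.822). Nor did it separate them from endothelial cells (endothelial minus mesothelial, 0.32, edgeR adjusted p = 0.233). SMCs and fibroblasts differed in Hoxb4 by a log2 fold change of -0.997, just inside the threshold (edgeR adjusted p = 4.02e-08). Hoxa4 stood between 10.5 and 18.5 CPM over all 8 values, the endothelial values (16.9 and 18.5 CPM) being the highest.

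Lymphatic endothelial cells, with 47 and 76 cells, showed a HoxD pattern that went beyond that of the blood endothelium. Hoxd8 stood at 120.1 and 118 CPM (20 and 30 UMIs), Hoxd9 at 96.1 and 134 CPM (16 and 34 UMIs) and Hoxd4 at 78.1 and 114 CPM (13 and 29 UMIs), above the endothelial values in both aortas. Hoxd10, nearly silent elsewhere, had 5 and 1 UMIs. HoxD genes made up 67.9% and 66.0% of Hox UMIs in these cells, against 10.4% and 8.57% in blood endothelium. The posterior HoxA and HoxB genes of the endothelium were missing, with 0 UMIs of Hoxa9, Hoxa10 and Hoxb9 in 420301 UMIs, which allows up to 7.14 CPM of each. Hoxa7 stood at 66.0 and 51.2 CPM, at the level of the blood endothelium (59.5 and 58.0 CPM). Lymphatic cells were in none of the 6 comparisons, and these differences were not tested.

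Leukocytes, which contain little Hox RNA when mature, gave the background. Summed Hox transcripts were 17.5 and 18.6 CPM in lymphocytes and 19.2 and 25.4 CPM in myeloid cells, and Hoxb4 alone gave 8.84 and 8.64 CPM in myeloid cells. After each cell was thinned to 1000 UMIs, 1.03% of the 581 lymphocytes from aorta 1 held a Hox UMI (95% Clopper-Pearson interval 0.380 to 2.23), as did 0.898% of the 334 from aorta 2 (0.186 to 2.60). Myeloid cells gave 1.25% of 957 cells (0.650 to 2.18) and 3.38% of 591 cells (2.08 to 5.18). The shares were 17.9% and 21% in SMCs (16.3 to 19.6 and 19 to 23.1), 30.9% and 32.7% in fibroblasts (28.7 to 33.2 and 29.97 to 35.6), 34.6% and 35% in endothelial cells (31.1 to 38.1 and 31.4 to 38.8) and 10.2% and 11.8% in mesothelial cells (6.74 to 14.5 and 7.12 to 18.0). All 8 intervals lay above those of the lymphocytes and myeloid cells. Without thinning, shares were 61.7% and 66.5% in SMCs at median depths of 7883.5 and 7559.5 UMIs, 69.6% and 66.1% in endothelial cells at 3738 and 3042 UMIs, 6.02% and 4.19% in lymphocytes at 3909 and 3739.5 UMIs, and 10.1% and 11.2% in myeloid cells at 5645 and 5694 UMIs. Intervals cover counting error only. Posterior genes summed to 0.620 and 0.763 CPM in myeloid cells, against 1.98 and 1.62 CPM in SMCs.

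The SMCs were not uniform in their Hox transcripts. They fell into 5 clusters, made without Hox genes, and cluster 3 (499 and 441 cells) stood apart. It was led by Rgs5, Lrrtm3 and Lamc3, and also by Dlx5 and Dlx6, which pattern the pharyngeal arches. Hoxa7 stood at 1.05 and 0.925 CPM in cluster 3, against 40.9 and 43.5 CPM in cluster 0 (595 and 529 cells) and 23.9 and 35.9 CPM in cluster 5 (567 and 293 cells). Hoxb7 stood at 0.786 and 0 CPM in cluster 3 against 16 and 20.7 CPM in cluster 0, and Hoxb8 at 0.262 and 0.617 CPM against 7.21 and 10.3 CPM. Hoxa2, Hoxa3 and Hoxa4 went the other way. Hoxa3 stood at 73.9 and 62.6 CPM in cluster 3 against 28.8 and 31.2 CPM in cluster 0, Hoxa4 at 25.7 and 30.5 CPM against 6.49 and 11.6 CPM, and Hoxa2, which patterns the second pharyngeal arch, at 17.0 and 13 CPM against 4.14 and 4.83 CPM. Hoxb2 was alike, at 40.6 and 37.9 CPM against 38.6 and 50.3 CPM.

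Over all SMCs outside cluster 3, the mean level was 37.7 CPM for Hoxa7 and 29.3 CPM for Hoxa3, against 0.987 and 68.3 CPM in cluster 3. Posterior genes had 0 UMIs in cluster 3. Cluster 3 held 53 of the 67 Hoxd4 UMIs of all SMCs. Msx2, Dlx5 and Dlx6 averaged 65.5, 105 and 87.0 CPM in cluster 3 and 1.21, 3.22 and 2.21 CPM in the other SMCs. Hand2, a factor of heart and neural crest development, averaged 7.83 CPM in cluster 3 and 48.0 CPM in the others. All 8 SMC markers were detected in cluster 3, at a summed 23282 and 24873 CPM against 47175 and 46168 CPM in cluster 0, and 4 of 6 pericyte markers were detected, at 3469 and 2975 CPM against 921 and 1016 CPM. The part of pericytes in these values was not tested. As Hox genes were measured in the cells that were clustered, these are descriptions with no test.

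**Figure D4:**
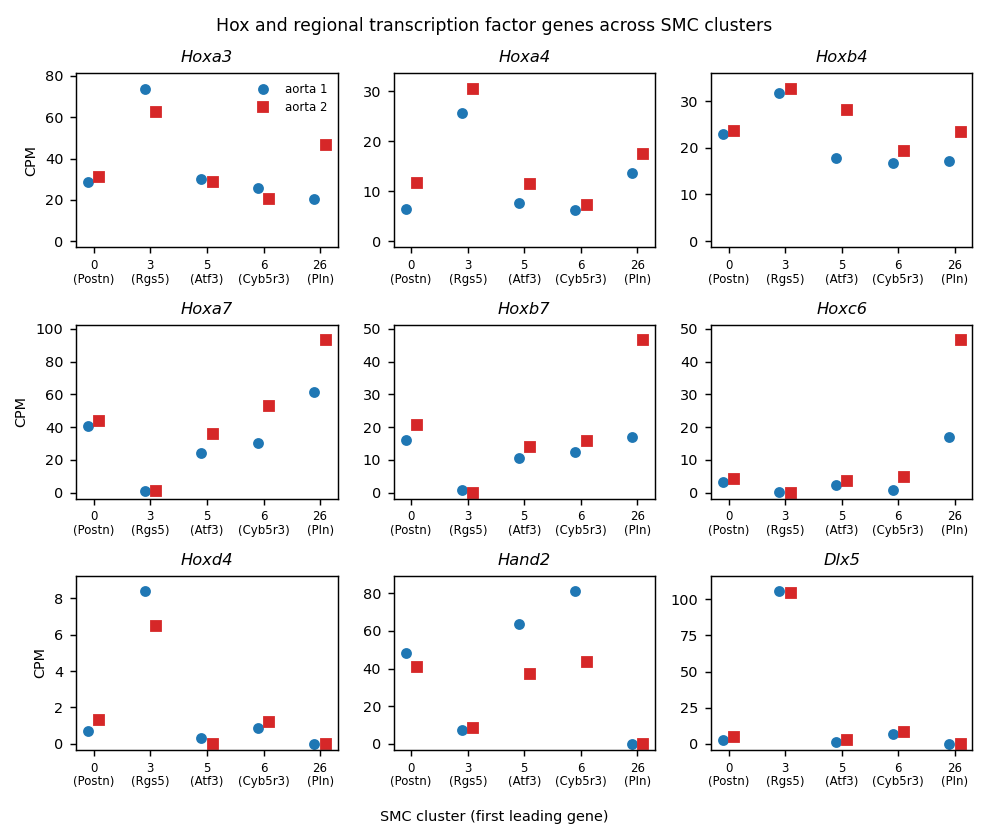
CPM (y axes, linear, from 0) of 7 Hox genes, Hand2 and Dlx5 in the 5 SMC clusters (x axes, cluster number with its first leading gene), with a blue circle for aorta 1 and a red square for aorta 2. Cluster 3 has the highest Hoxa3, Hoxa4, Hoxd4 and Dlx5 and next to no Hoxa7 or Hoxb7, and cluster 26 has the highest Hoxa7 and Hoxc6 and no Hand2.

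A small SMC cluster, number 26 (42 and 25 cells, led by Pln, Sncg and Notch3), held 61.5 and 93.3 CPM of Hoxa7, 17.1 and 46.7 CPM of Hoxc6, and 0 UMIs of Hand2, Dlx5 and Dlx6, which allows up to 6.46 CPM of each. A like separation appeared between single cells without use of the clusters. Among SMCs with a Hand2 UMI, a Hoxa7 UMI was found in 9 of 462 cells from aorta 1 (1.95%, Clopper-Pearson interval 0.895 to 3.67) and 4 of 248 from aorta 2 (1.61%, 0.441 to 4.08), at median depths of 9735.5 and 9580.5 UMIs. Among SMCs without one it was found in 13.2% and 15.1%, although they were shallower (7231 and 7220 UMIs). Among SMCs with a Dlx5 or Dlx6 UMI the share was 1.62% and 1.51%, and among those without either 12.7% and 16.0%. Cells with a Hoxa7 UMI held 38.6 and 47.6 CPM of Hoxb7 against 5.84 and 6.52 CPM in cells without, 9.53 and 14.5 CPM of Hoxc6 against 1.18 and 1.32 CPM, and 0 UMIs of Hoxd4. They held less Hoxa3 (26 and 27.4 CPM against 41.3 and 41.0 CPM) and less Hand2 (5.20 and 2.59 CPM against 52.1 and 36.0 CPM). Hoxa7 and Hand2, and Hoxa7 and Dlx5 or Dlx6, were thus seldom detected in the same SMC.

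Among the fibroblasts, cluster 21 (83 and 22 cells, led by Angptl1 and Mab21l2) was filled up to Hoxa5 and Hoxb6. Hoxa4 stood at 162 and 86.8 CPM, Hoxa5 at 134 and 127 CPM, Hoxb4 at 117 and 127 CPM and Hoxb5 at 113 and 86.8 CPM. In the other fibroblasts these genes averaged 7.54, 41.2, 51.8 and 20.6 CPM. Hoxa7 had 0 UMIs in cluster 21 against 1004 in the other fibroblasts, which were at least 14.3-fold higher. Hoxb8, Hoxc6 and Hoxc8 also had 0 UMIs there, and Hoxb7 had 3. Hoxd4 stood at 17.0 and 17.4 CPM in cluster 21 and averaged 0.966 CPM in the other fibroblasts. Of 8 fibroblast markers, 7 were detected in the cluster. The other fibroblast clusters with at least 10 cells in each aorta held Hoxa7 between 38.0 and 77.8 CPM and Hoxc6 between 14.0 and 28.3 CPM, and Hoxc4 stood at 3.50 and 0 CPM in cluster 12 (led by Tnfrsf11b and Fst) and 18.6 and 21.3 CPM in cluster 2 (led by Penk and Sfrp4).

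**Figure D5:**
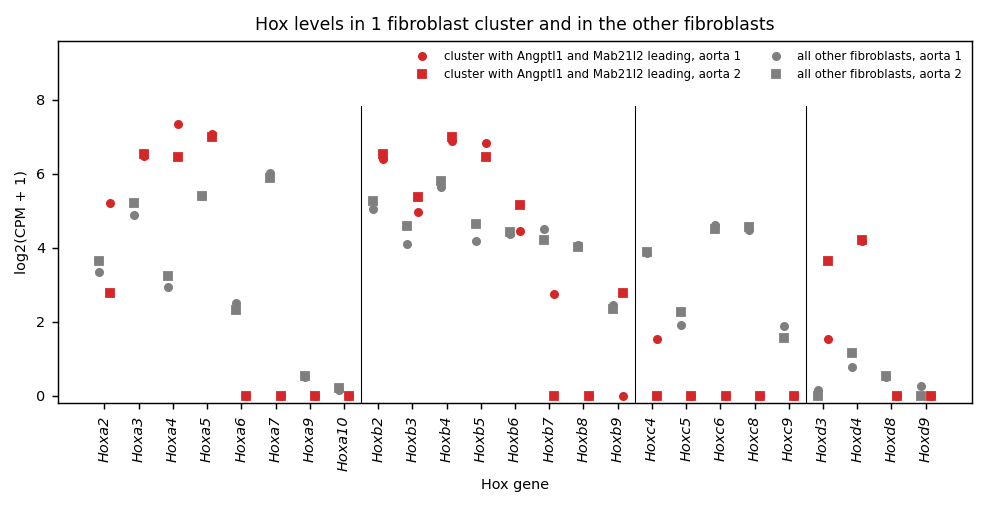
log2(CPM + 1) (y axis) of the described Hox genes reported here (x axis, black lines between chromosome clusters) in fibroblast cluster 21 (red) and in all other fibroblasts (grey), with circles for aorta 1 and squares for aorta 2. Red points lie above grey ones from Hoxa3 to Hoxa5 and from Hoxb2 to Hoxb5, and at 0 for Hoxa7, Hoxb8, Hoxc6 and Hoxc8.

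The endothelial clusters together held 2 and 3 HoxC UMIs, and they differed in the posterior genes. Hoxa9 stood between 27.5 and 63.0 CPM in clusters 7, 8 and 16, and at 0 and 9.66 CPM in cluster 22 (40 and 49 cells, led by Gpihbp1, Fabp4 and Rbp7), which also had 0 UMIs of Hoxa10 and Hoxb9. In this small cluster 0 UMIs allow up to 12.0 CPM of each (3 UMIs over both aortas), so a lower level there was only coarsely measured. Cluster 16 (96 and 59 cells, led by Igf2 and Sema3g) held 43.4 and 94.6 CPM of Hoxb7, 46.1 and 63.0 CPM of Hoxd4 and 24.4 and 12.6 CPM of Hoxd9. Cluster 7 (303 and 294 cells) held less of these, with 19.5 and 18.4 CPM of Hoxb7, 17.0 and 11.2 CPM of Hoxd4 and 1.70 and 1.02 CPM of Hoxd9. Isl1, a factor of the second heart field, was ordered the other way, at 157 and 162 CPM in cluster 7, 72.1 and 69.7 CPM in cluster 8 and 5.42 and 0 CPM in cluster 16. Endothelial cells with a Hoxa9 UMI (106 and 85 cells) held 116 and 106 CPM of Hoxa7 against 48.4 and 48.8 CPM in those without, and 9.98 and 5.44 CPM of Hoxa4 against 18.2 and 21 CPM, at median depths of 4333.5 and 4097 UMIs against 3650 and 2959. The mesothelial cells formed 1 cluster and could not be divided.

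Genes that act with or on the Hox clusters were compared between SMCs and fibroblasts as well, where 10.8% of all tested genes were higher in SMCs and 15.4% in fibroblasts. Of 9 TALE cofactor genes, all tested, 0 were higher in SMCs and 1, Pbx4, was higher in fibroblasts (0.719 and 0.766 CPM against 1.1 and 3.24 CPM, log2 fold change -1.26 ± 0.53, edgeR adjusted p = 0.0495). Of 5 tested cluster RNAs, 2 were higher in SMCs, namely Hotairm1 (58.1 and 49.5 CPM against 26 and 19.6 CPM, 1.37 ± 0.15) and Hoxb3os (31.9 and 33.5 CPM against 14.3 and 15.2 CPM, 1.30 ± 0.14). Of 17 tested chromatin regulators of the Hox clusters, of the Polycomb and Trithorax type, 0 were called by edgeR, and 11 had an unadjusted p under 0.05. In each direction of the other comparisons, 0 to 3 cofactors, 0 to 2 cluster RNAs and 0 or 1 chromatin regulators were called. The share of all tested genes called was 11% to 15.6% in each direction. Hoxd3os1, chosen after its values were seen because it overlaps Hoxd4 and Hoxd8, stood at 6.95 and 7.91 CPM in endothelium and 0 UMIs in SMCs. Of the Cdx, Evx and Gbx2 genes, 0 of 6 passed the filter for testing.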

How the data were processed

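Viable cells of 2 thoracic aortas were profiled by 3′ single-cell RNA sequencing (Chromium Next GEM 3′ v3.1). The deposited values are UMI counts per gene and cell, made by the authors with Cell Ranger 4.0.0 on mm10 to which eGFP and tdTomato had been added. Whether strand was used in counting was not given in the sources used here. The 8947 and 6263 deposited cells held 47009780 and 30919996 UMIs, and the lowest cell held 500. Cells with 1000 to 25000 UMIs, over 200 genes and under 10% mitochondrial UMIs were kept, and 205 and 84 doublets (3.04% and 1.79%) called by scanpy's Scrublet were removed. The kept cells were clustered without Hox genes (scanpy 1.11.5, Leiden), and the 32 clusters were named from marker lists. The score used for naming was altered once the clusters' values were known, since its first form called the SMC cluster led by Rgs5 pericytes. Members and lists were chosen with earlier results of these data known.

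Counts were summed per aorta and cell type and fitted with edgeR 4.0.16 (quasi-likelihood, TMM, 16 sums of 8 types, no block), with Benjamini-Hochberg adjustment over 13699 genes, and the script was tested on simulated data. DESeq2 1.42.0 and other settings were alternatives. A type at 0 UMIs was set to 3 UMIs over both aortas for a lower bound of the fold, and folds against 1 to 3 UMIs are pooled ratios with exact counting intervals. Sums of the same number come from the same aorta, which is the pairing. Their deviations correlated weakly over genes (r = 0.0527 to 0.0727 over the 6 pairs of types). CPM is UMIs per 1000000 UMIs of the type. As only 3′ ends were counted and lengths were not used, levels of different genes are not ranked. Named genes were the members with at least 20 UMIs, of which 1 is not reported here, and of the added lists those called between SMCs and fibroblasts.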

Additional observations from a re-analysis of the deposited data

How the results depend on the processing

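Of 76 called differences of a Hox gene between cell types, 54 held under every alternative that gave a value and 22 were lost under at least 1. Over 894 recomputed fold changes, 843 kept their call, 51 lost it and 0 changed sign, and 18 could not be fitted because the gene fell below the filter. Of 144 recomputed counts of calls, 136 stayed within 1.5 times. SMC against endothelial gave 1 gene higher in SMCs in a fit of these types alone and 1 to 2 without either aorta. Genes higher in mesothelial cells were 0 to 1 against SMCs and 0 to 1 against fibroblasts without either aorta. Against endothelium they were 1 in a fit of these types alone, 0 with cells of 5000 to 25000 UMIs and 0 without either aorta. The aorta as a replicate block ended the calls of Hoxd4 (SMC against mesothelial), Hoxb3 (endothelial against mesothelial) and Hoxd3 (fibroblast against endothelial) given above, and no other call. Summed levels moved with cells of 5000 to 25000 UMIs to 2.11 CPM for posterior genes in SMCs and, in endothelium, to 449.9 CPM for all, 78.6 for anterior, 277 for central and 94.2 for posterior genes. With doublets kept they moved to 88.7 CPM (anterior) and 91.3 CPM (posterior) in endothelium and to 138 CPM (all) and 0.517 CPM (posterior) in mesothelial cells. A stricter naming of clusters, chosen after seeing the data, left SMC cluster 3 unnamed and moved SMC sums to 88.0 CPM (anterior) and 2.40 CPM (posterior). Without thinning the shares of cells with a Hox UMI were 64.1% in SMCs, 74.7% in fibroblasts, 67.9% in endothelial and 47.9% in mesothelial cells. DESeq2 scaling shifted the median log2 fold change of all genes by -0.33 for SMC against fibroblast, -0.20 for SMC against endothelial, -0.28 for SMC against mesothelial and 0.10 for fibroblast against endothelial, and no called Hox gene changed direction. The cause of these changes was not tested. Depth limits small types and clusters, where 3 UMIs equal 1.18 CPM (mesothelial), 7.14 CPM (lymphatic) and 12.0 CPM (endothelial cluster 22).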
